A study of Mus musculus with 35 samples.

Results

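The genes described are 10 members of a group named IL-6 family and STAT3 signalling, chosen by symbol among the 32544 genes of the deposited count tables. They are the ligands Lif, Il6 and Osm, the receptor chains Il6st, Osmr and Il4ra, the kinase Jak2, the transcription factor Stat3, the feedback inhibitor Socs3 and the NF-kB cofactor Bcl3. Il4ra serves the receptors of IL-4 and IL-13, and neither it nor Bcl3 is part of the gp130 complex described below. Each of the 10 had 1 row in the tables. The study put kainic acid, a glutamate receptor agonist, into the amygdala of mice (IAKA) to cause status epilepticus, and compared hippocampal RNA with that of mice given PBS in the amygdala. RNA was taken 24 hours or 2 weeks later, and was sequenced as total RNA (input) or after pulldown with an antibody against m6A, a methyl mark on adenosine. The mice were male C57BL/6JOlaHsd animals of 7 to 9 weeks with a cannula implanted over the amygdala, and the methods state that IAKA mice received lorazepam 40 minutes after the injection. No mouse carried a transgene by the labels. Each library is 1 mouse. For m6A there were 5 mice given IAKA and 3 given PBS at 24 hours, and 6 and 5 at 2 weeks. For input, libraries with at least 100000 counts were used, which left 3 mice given IAKA and 1 given PBS at 24 hours, and 6 and 3 at 2 weeks.

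IL-6 family cytokines bind a receptor complex built around gp130, the signal-transducing chain encoded by Il6st, and receptor-bound JAK kinases then phosphorylate STAT3. Phosphorylated STAT3 enters the nucleus and switches on target genes, among them Socs3, whose protein binds gp130 and JAK and shuts the signal off. In the brain the pathway is known for driving the reactive state of astrocytes after injury, with GFAP as the usual marker. STAT3 is controlled by phosphorylation as well as by its RNA level, and these libraries measure RNA only.

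Promoter windows show where the members carry letters that STAT or AP-1 factors can bind. RefSeq (build GRCm38.p6, the mm10 build of the labels) listed 1 window of 300 bases, from 250 before to 50 after a gene start, for 9 of the 10 members, and Osm had no entry. Only that start was searched. The STAT motif TTCNNNGAA was in 8.30% of 32851 windows and the AP-1 motif TGANTCA, where N is any base, in 7.81%. Both read the same on either strand, and the listed matches of different motifs do not overlap. Among the members the STAT motif was found in Socs3 alone, starting 154 bases before the start. The AP-1 motif was found in Il6 and Lif, 249 and 228 bases before the start, and in Osmr, from base 4 of the transcript. The STAT6 motif, which has a spacer 1 base longer and was in 6.95% of windows, was in no member. The stretches around the 4 matches follow, 5′ to 3′ on the gene's strand, with the motif in capitals.
Socs3, chr11:117969482-117969550, minus strand: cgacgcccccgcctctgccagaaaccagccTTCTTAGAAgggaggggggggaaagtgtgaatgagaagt
Lif, chr11:4257318-4257376, plus strand: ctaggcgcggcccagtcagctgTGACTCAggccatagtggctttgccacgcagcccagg
Il6, chr5:30012864-30012901, plus strand: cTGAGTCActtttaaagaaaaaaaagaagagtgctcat
Osmr, chr15:6874294-6874320, minus strand: gccccgtagtTGATTCAtagctggggc
A match is a description of the letters and was not tested as a binding site.

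Library quality bears on the values below. Total counts of m6A libraries ran from 1652933 to 34564536, and those of the input libraries used from 3057578 to 12694434. Levels are given as CPM, counts scaled to the total of the library, and 3 counts, the limit that a count of 0 allows, came to between 0.0868 and 1.81 CPM in m6A libraries. Markers of hippocampal excitatory neurons and of astrocytes were present in every library. Mouse 8 of the IAKA group at 24 hours stood apart: its summed astrocyte markers were 790 CPM in the m6A library against 2725 to 3341 CPM in the other 4 IAKA libraries, its excitatory neuron markers 680 against 2272 to 2441 CPM, and its leukocyte markers 80.8 against 25.2 to 37.4 CPM. Its input library had the same pattern, with 680 CPM of astrocyte markers. At 2 weeks IAKA mouse 42 had the highest summed microglia markers, 575 CPM in its m6A library and 397 CPM in its input library. In bulk tissue, more or fewer cells of a type cannot be told apart from more or less RNA per cell. The assay of 27 of the 35 libraries was read from whether the column name has a numeric prefix, which no label explains. The prefix splits the m6A libraries into 3 sets, and set 3 holds IAKA mice alone, so set and treatment partly overlap. The input libraries fall into 2 sets in the same way, and no PBS library of the set named Input was deep enough to use. Within a set the treatments could be compared in set 4 at 24 hours (2 against 2 mice) and in set 5 at 2 weeks (3 against 3).

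At 24 hours after IAKA the transducer Stat3, its inhibitor Socs3, the oncostatin M receptor Osmr and Bcl3 were higher in every IAKA m6A library than in every PBS m6A library. Their fitted levels were 3.05-fold (Stat3), 8.57-fold (Socs3), 3.74-fold (Osmr) and 8.03-fold (Bcl3) those of PBS mice, and the folds of Socs3 and Bcl3 moved by over 1.5 times when PBS mouse 71 was left out. At a threshold of 0.05 on the Benjamini-Hochberg adjusted p (edgeR quasi-likelihood) none passed, so no member is called changed, and 0.00607% of the 16470 genes tested were called in either direction. At an unadjusted p under 0.05, 7 of the 8 members tested were higher, against 4.02% of all genes tested. Groups that did not overlap, with every IAKA library above every PBS library, were found for 4 of the 10 members and for 2.62% of all genes tested. The median log2 fold change of the 8 was 1.40, against 0.08 over all genes. Il6 and Osm fell below the filter on low counts. Members that passed it include genes such as Bcl3 and Socs3 with few counts in PBS mice, so these counts describe the members and were not read as a test of the pathway. Marker lists of other cells gave medians of 0.34 for endothelial cells, 0.19 for microglia and 0.09 for astrocytes. Infiltrating leukocyte markers had a median of 1.07, with 6 of 6 tested above 0. Their summed level was 25.2 to 80.8 CPM in IAKA and 10.9 to 36.1 CPM in PBS mice. Choroid plexus markers had a median of 0.86, with 5 of 5 above 0. Their summed level was 28.9 to 972 CPM in IAKA and 45.7 to 598 CPM in PBS mice. The median was 0.56 for thalamus markers, −0.26 for excitatory neurons, 0.03 for inhibitory neurons and −0.43 for oligodendrocytes. The part of these lists in the members' values was not tested.

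**Figure D1:**
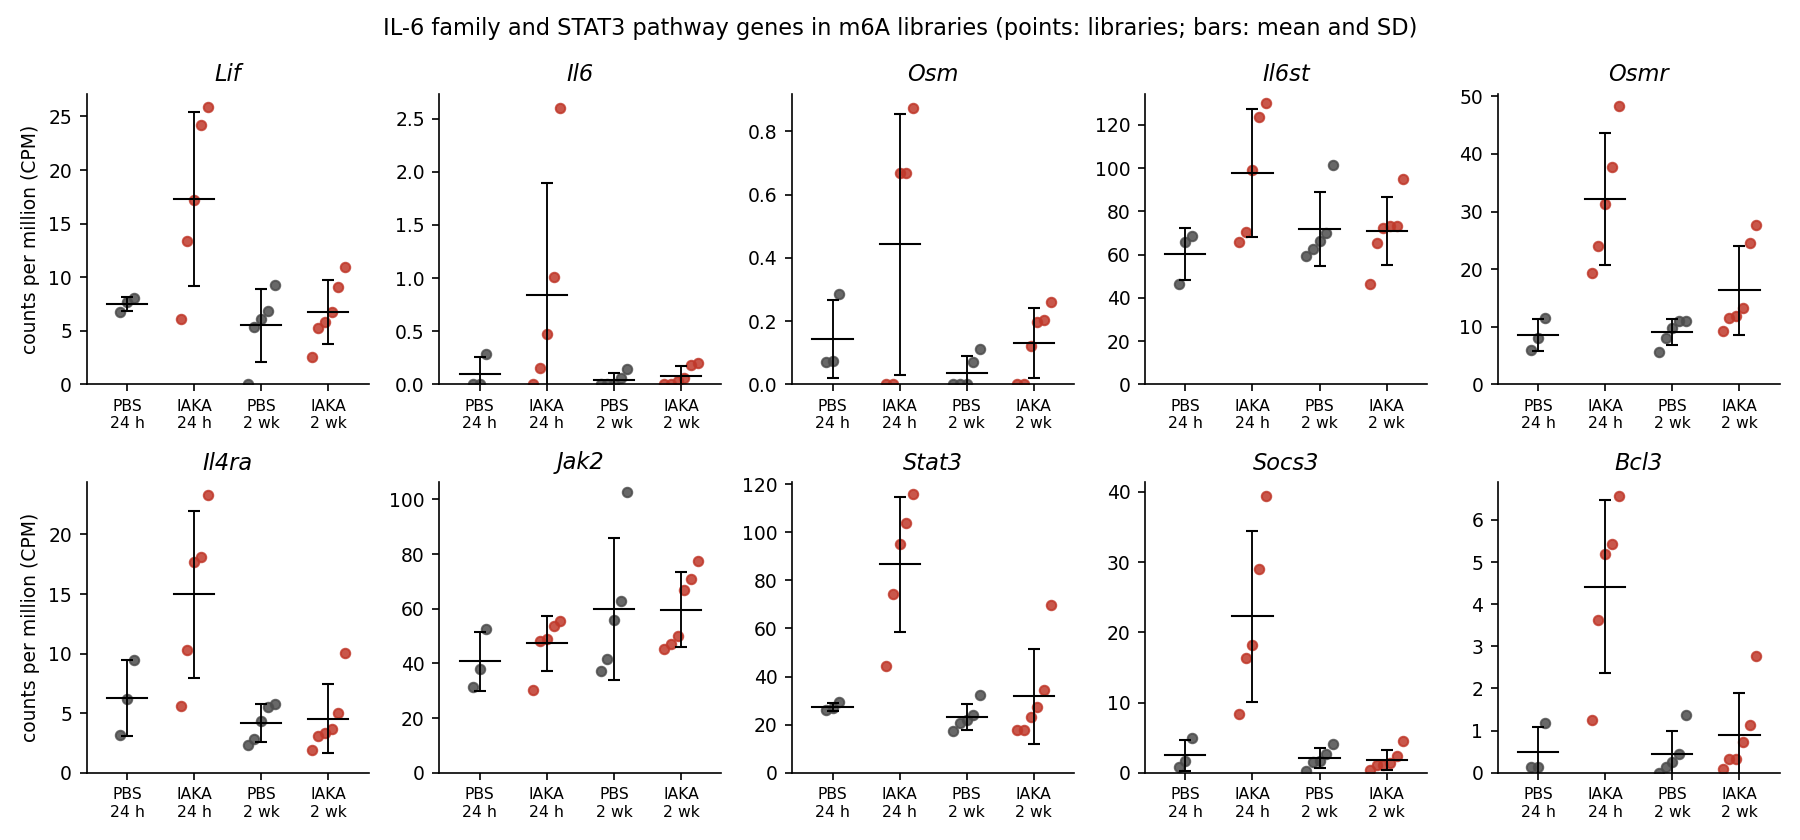
Level of each gene in the m6A libraries, in CPM on linear axes that start at 0. Each point is the library of 1 mouse (grey PBS, red IAKA), and bars give the mean and SD. Stat3, Socs3, Osmr and Bcl3 show no overlap between IAKA and PBS mice at 24 hours, and the groups overlap for every gene at 2 weeks.

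Stat3, the transcription factor on which the family's receptors converge, was at 116, 104, 95.0, 74.2 and 44.3 CPM in the 5 IAKA m6A libraries at 24 hours. The 3 PBS libraries were at 29.3, 26.8 and 26.0 CPM. The PBS mice lay close together and the lowest IAKA value was that of mouse 8. IAKA over PBS was 1.61 on the log2 scale, with a standard error of 0.28 (unadjusted p = 0.000165, adjusted p = 0.124, edgeR quasi-likelihood). Without mouse 8 it was 1.72 and passed the threshold (adjusted p = 0.0266), with 0.267% of genes tested then called higher. Within set 4 it was 1.57 (adjusted p = 0.0184).

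Socs3, the feedback inhibitor whose promoter stretch with the STAT motif is printed above, was at 39.4, 29.0, 18.2, 16.3 and 8.31 CPM in IAKA mice. It was at 5.02, 1.65 and 0.812 CPM in PBS mice. PBS mouse 71 was the closest to the IAKA range. The fitted log2 difference was 3.10 ± 0.63 (SE, adjusted p = 0.199), and 3.19 within set 4 (adjusted p = 0.0347). With 1 library left out at a time it ran from 2.70 to 4.06, the highest without PBS mouse 71.

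Osmr, the chain that pairs with gp130 to bind oncostatin M, was at 48.4, 37.8, 31.3, 24.0 and 19.4 CPM in IAKA mice and at 11.5, 8.12 and 6.01 CPM in PBS mice. The lowest IAKA value was that of mouse 98, the library with the fewest counts, and not that of mouse 8. This gave 1.90 ± 0.33 on the log2 scale (SE, adjusted p = 0.130) and 2.18 within set 4 (adjusted p = 0.0185). Bcl3, which binds NF-kB subunits in the nucleus, was at 6.57, 5.42, 5.19, 3.63 and 1.26 CPM in IAKA mice, from 6 to 166 counts. In PBS mice it was at 1.18, 0.148 and 0.143 CPM, from 2 to 33 counts, so the fold of this gene rests on few molecules. On the log2 scale the difference was 3.00 ± 0.79 (SE, adjusted p = 0.427). It ran from 2.62 to 4.70 with 1 library left out, the highest again without PBS mouse 71.

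The receptor chains shared by several cytokines had smaller differences, and their groups overlapped. Il6st (gp130) was at 130.3, 124, 99.0, 70.3 and 65.9 CPM in IAKA mice and at 68.7, 65.9 and 46.6 CPM in PBS mice, or 0.66 ± 0.28 higher on the log2 scale (SE, adjusted p = 0.888). Il4ra, the chain shared by the receptors of IL-4 and IL-13, was at 23.3, 18.1, 17.7, 10.3 and 5.56 CPM in IAKA mice and at 9.50, 6.15 and 3.17 CPM in PBS mice. Mouse 8 alone kept the Il4ra groups from separating. The fitted level of Il4ra was 2.29-fold that of PBS mice, with a 95% interval of 0.20 to 2.19 on the log2 scale (adjusted p = 0.781).

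Among the ligands, Lif, a cytokine that signals through gp130 and the LIF receptor, was the one with enough counts to test. It was at 25.9, 24.2, 17.2, 13.4 and 6.05 CPM in IAKA mice and at 8.07, 7.65 and 6.79 CPM in PBS mice. The IAKA library below the PBS range was that of mouse 98, with 10 counts of Lif. The fitted level of Lif was 2.30-fold that of PBS mice, with an interval of 0.32 to 2.08 on the log2 scale (adjusted p = 0.630). Il6 had 35, 15, 2, 2 and 0 counts in the IAKA libraries, the highest in mouse 8, and 8, 0 and 0 counts in PBS mice. Osm, the ligand of the Osmr complex, had 28, 9, 9, 0 and 0 counts in IAKA mice and 8, 1 and 1 in PBS mice. For both the IAKA libraries at 0 were shallow (1652933 and, for Osm, also 1979606 counts in all), so a difference was not detectable at this depth.

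Jak2, the kinase bound to the receptor chains, was the member with the smallest difference. It was at 55.6, 53.8, 49.0, 48.3 and 30.1 CPM in IAKA mice and at 52.6, 38.0 and 31.5 CPM in PBS mice. The log2 fold change was 0.18 with a 95% interval from −0.37 to 0.74. The interval leaves room for a change of either sign.

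DESeq2 on the same libraries called 4 of these members (Stat3, Socs3, Osmr and Bcl3) higher, where it called 0.862% of genes tested higher. Within set 4 the test called 5 members higher (Stat3, Socs3, Osmr, Lif and Il4ra), where 1.47% of genes tested were. With all m6A groups in 1 fit 1 member was called (Osmr), where 0.172% of genes were called higher. The library set as a block over all libraries called 0 members, with 766 genes at an unadjusted p under 0.05. It gave log2 fold changes of 1.57 for Stat3, 3.25 for Socs3 and 2.19 for Osmr. At 24 hours set 3 held IAKA mice alone and set 5 held 1 PBS mouse alone, so the block estimate rests on set 4. It is not a separate check on the fit within set 4. The direction held in all of these fits, and the calls depended on the model.

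The input libraries ask whether the RNA level itself differed, irrespective of m6A. At 24 hours the same genes were higher, against a single PBS library of sufficient depth, which was assumed to vary as the 3 IAKA libraries did. Of the 18918 genes tested 0% were called by edgeR's quasi-likelihood test, where 432 genes had an unadjusted p under 0.05. All 10 members were tested, and 4 of them (Stat3, Socs3, Osmr and Lif) were higher at an unadjusted p under 0.05, against 1.49% of all genes. For 7 of 10 members every IAKA library was above the PBS library, against 10.6% of all genes tested. The median log2 fold change of members was 1.90 and that of all genes 0.30. Il6 and Osm passed the filter on low counts through the library of mouse 8, and neither was tested without it. Bcl3 passed with 4 counts in the PBS library. These counts therefore describe the members and were not read as a test of the pathway. Without mouse 8 the medians were 2.05 for the 8 members then tested and 0.01 for all genes. With mouse 8 kept and scaling by library size in place of TMM (a trimmed mean of M-values), the median of all genes was 0.02. Markers of infiltrating leukocytes had a median of 1.88, with 8 of 8 above 0 and a summed level of 25.9 to 62.2 CPM in IAKA mice against 24.3 CPM. Endothelial markers had a median of 1.74, with 4 of 6 higher at an unadjusted p under 0.05, at a summed level of 440.5 to 1211 CPM against 887 CPM. Choroid plexus markers had a median of 1.03, with 5 of 5 above 0 and a summed level of 78.4 to 536 CPM against 286 CPM. The median was 0.77 for thalamus markers, 0.69 for microglia, 0.63 for astrocytes and 0.11 for excitatory neurons. It was −0.49 for inhibitory neurons and −0.51 for oligodendrocytes. The part of these cells in the members' values was not tested.

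**Figure D2:**
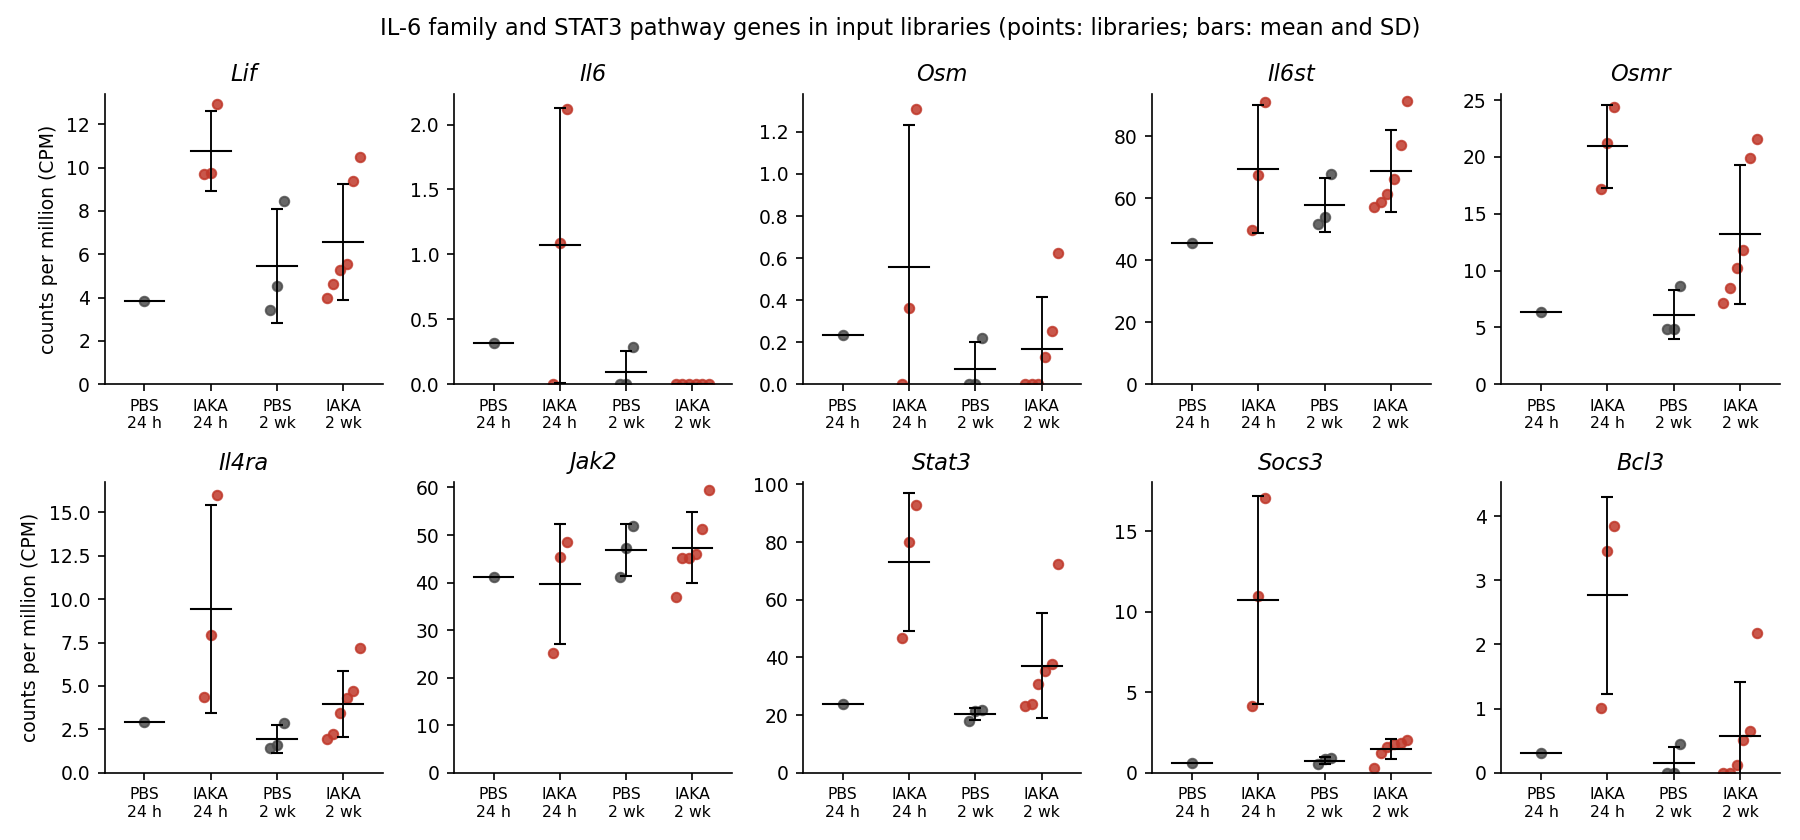
Level of each gene in the input libraries with at least 100000 counts, in CPM on linear axes that start at 0. Each point is the library of 1 mouse (grey PBS, red IAKA), and bars give the mean and SD where there is more than 1. At 24 hours Stat3, Socs3 and Osmr in 3 IAKA mice sit above the single PBS mouse, and at 2 weeks Stat3 is the gene whose groups do not overlap.

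Stat3 was at 92.8, 79.9 and 46.6 CPM in the 3 IAKA input libraries (mice 67, 98 and 8) and at 23.9 CPM in PBS mouse 1. Socs3 was at 17.1, 11.0 and 4.14 CPM against 0.630 CPM, and Osmr at 24.4, 21.2 and 17.1 CPM against 6.38 CPM. Mouse 8 was the lowest of the 3 for each of these genes, as it was in the m6A libraries for Stat3 and Socs3. The log2 fold changes were 1.87 ± 0.49 (Stat3), 4.29 ± 1.02 (Socs3) and 1.98 ± 0.38 (Osmr), each with SE and an adjusted p of 0.991.

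Lif was at 12.9, 9.73 and 9.68 CPM in IAKA mice and at 3.86 CPM in the PBS mouse. Bcl3 was at 3.84, 3.46 and 1.01 CPM against 0.315 CPM, the latter from 4 counts, and Il4ra at 16.0, 7.93 and 4.34 CPM against 2.91 CPM. Il6st was at 90.9, 67.6 and 49.7 CPM against 45.5 CPM. Il6 had 21, 6 and 0 counts in IAKA mice and 4 in the PBS mouse, and Osm 13, 2 and 0 against 3. Jak2 had a log2 fold change of 0.20 with an interval from −0.90 to 1.30, and its IAKA values lay on both sides of the PBS library.

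The calls at 24 hours in input turned on mouse 8, whose library was also the only usable one with the column prefix Input. Without it, 2 IAKA mice and 1 PBS mouse of the same library set remained, with 1 residual degree of freedom. The test then called 7 of the 8 members tested higher (all but Jak2), where 7.16% of the genes tested were called higher. With the library set as a block over all 4 libraries 7 members were called, where 7.74% of genes were called higher. With the shallow input libraries added 1 was (Socs3), where 0.56% of genes were. In the fit without mouse 8 the log2 fold changes were 2.05 for Stat3, 4.66 for Socs3 and 2.04 for Osmr. The low astrocyte and neuron markers of mouse 8 and these values move together, and their part in the result was not tested.

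**Figure D3:**
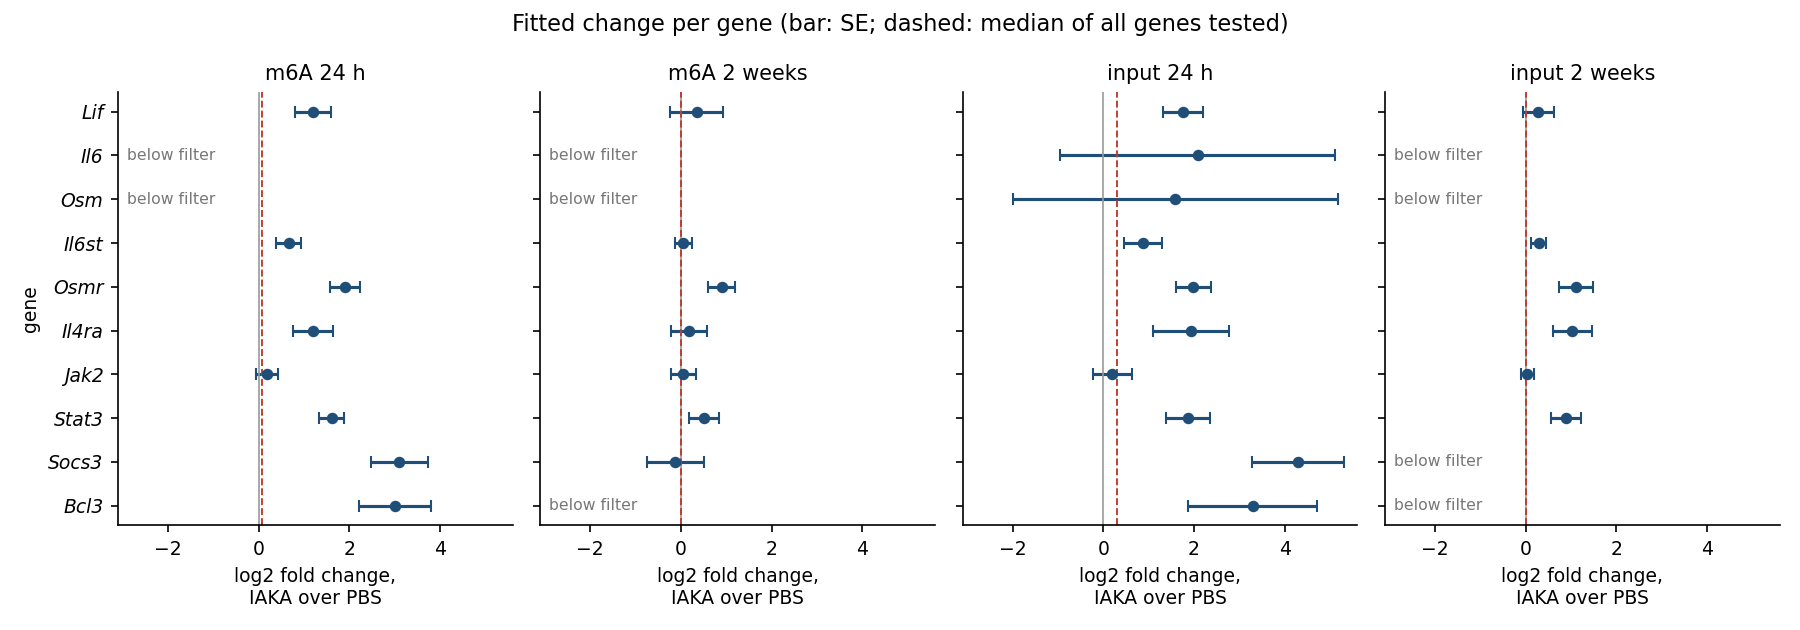
Fitted log2 fold change of IAKA over PBS for each gene, with bars of 1 standard error, in the 4 comparisons. The dashed line is the median of all genes tested. Socs3 lies at 3.10 (m6A) and 4.29 (input) at 24 hours and at −0.13 in m6A at 2 weeks, whereas Jak2 lies between 0.04 and 0.20 in all 4.

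At 2 weeks the fitted levels of IAKA over PBS mice were 1.87-fold (m6A) and 2.16-fold (input) for Osmr and 1.42-fold and 1.85-fold for Stat3, while Socs3 was at 0.916-fold in m6A libraries. The test called 0% of 16157 genes in m6A libraries and 0% of 13752 genes in input libraries (edgeR quasi-likelihood, 809 and 1938 genes at an unadjusted p under 0.05), so no member was called. In m6A libraries 1 of 7 members tested (Osmr) was higher at an unadjusted p under 0.05, against 2.85% of all genes, and 0 of 10 members had groups that did not overlap, against 0.26%. In input libraries 3 of 6 members tested (Stat3, Osmr and Il4ra) were higher at an unadjusted p under 0.05, against 8.41% of all genes. The groups did not overlap for 1 of 10 members (Stat3), against 2.64%. Microglia markers had medians of 0.72 in m6A libraries (7 of 8 above 0) and 0.81 in input libraries (8 of 8 above 0). Their summed level in m6A libraries was 207 to 575 CPM in IAKA and 159 to 233 CPM in PBS mice. In input libraries it was 171 to 397 CPM and 117 to 181 CPM. Astrocyte markers had medians of 0.29 and 0.65. Infiltrating leukocyte markers had medians of 0.79 (4 of 4 tested above 0) and 0.37 (2 of 2). The m6A and input medians were −0.36 and 0.61 for excitatory neurons, −0.04 and 0.49 for endothelial cells and −0.12 and 0.07 for inhibitory neurons. They were −0.11 and 0.23 for oligodendrocytes, −0.07 and 0.27 for choroid plexus and −0.43 and 0.02 for thalamus markers. The part of these lists in the members' values was not tested.

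Osmr in m6A libraries ran from 9.18 to 27.6 CPM with a median of 12.6 CPM in the 6 IAKA mice, and was at 11.0, 10.9, 9.73, 8.07 and 5.62 CPM in the 5 PBS mice. Mice 42 and 7 were high and the other 4 IAKA mice lay at 9.18 to 13.2 CPM, partly within the PBS range. In the fit Osmr was 0.90 ± 0.30 higher on the log2 scale (SE, adjusted p = 0.875), and 0.70 without mouse 42. In input libraries Osmr ran from 7.11 to 21.5 CPM with a median of 11.0 CPM in IAKA mice and was at 8.66, 4.89 and 4.85 CPM in PBS mice. The same 2 mice were highest there. There the difference was 1.11 ± 0.37 (log2, SE, adjusted p = 0.277).

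Stat3 in input libraries ran from 23.1 to 72.4 CPM with a median of 32.9 CPM in IAKA mice, and was at 21.7, 21.3 and 18.0 CPM in PBS mice. Every IAKA mouse was above every PBS mouse, and mouse 42 lay far above the other 5, whose highest value was 37.8 CPM. The log2 fold change was 0.89 ± 0.33 (SE, adjusted p = 0.297), 0.58 without mouse 42 (adjusted p = 0.347) and 1.16 within the 3 IAKA and 3 PBS mice of one library set. In m6A libraries Stat3 ran from 17.7 to 69.8 CPM with a median of 25.4 CPM in IAKA mice and from 17.3 to 32.2 CPM in PBS mice. There the groups overlapped, and the log2 fold change of 0.50 ± 0.33 (SE, adjusted p = 0.875) was 0.13 without mouse 42. Mouse 42 also had the highest microglia markers, whose part in its Stat3 level was not tested.

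Socs3 in m6A libraries ran from 0.409 to 4.46 CPM with a median of 1.29 CPM in IAKA mice and was at 4.09, 2.74, 1.69, 1.59 and 0.216 CPM in PBS mice at 2 weeks. The IAKA mice lay almost wholly within the PBS range. The log2 fold change was −0.13 with an interval from −1.46 to 1.21. It was 0.24 within set 5, so its sign is not settled. In input libraries it was below the filter, with 1 to 16 counts per IAKA library and 3 to 4 per PBS library.

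Of the remaining members tested at 2 weeks, Il4ra in input libraries had the largest difference. Il6st had log2 fold changes of 0.05 in m6A and 0.29 in input libraries, Lif of 0.35 and 0.28, and Jak2 of 0.06 and 0.04. Il4ra was at 0.17 in m6A libraries, with a highest IAKA value of 10.1 CPM in mouse 42, and at −0.23 without that mouse. In input libraries Il4ra ran from 1.96 to 7.18 CPM in IAKA mice and from 1.43 to 2.89 CPM in PBS mice, a difference of 1.03 ± 0.43 on the log2 scale (SE, adjusted p = 0.327). Lif had 0 counts in the m6A library of PBS mouse 4, which allows up to 0.456 CPM, where the other 4 PBS mice were at 5.37 to 9.26 CPM. Bcl3, Il6 and Osm were below the filter in both kinds of library, and Il6 had 0 counts in all 6 IAKA input libraries.

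The difference between the 2 times was tested as an interaction. In m6A libraries it called 0.00573% of 17440 genes and no member, and in input libraries 0% of 17644 genes (543 at an unadjusted p under 0.05). Socs3 had the smallest p of the members in both. Its IAKA effect at 24 hours exceeded that at 2 weeks by 3.22 ± 0.95 on the log2 scale in m6A libraries (unadjusted p = 0.0029) and by 3.24 ± 1.00 in input libraries (unadjusted p = 0.0061). Neither passed adjustment (adjusted p = 1.00 in both, edgeR quasi-likelihood). For Stat3 the difference was 1.11 ± 0.46 in m6A and 1.01 ± 0.61 in input libraries, and for Osmr 1.01 ± 0.45 and 0.90 ± 0.62.

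Whether the m6A pulldown changed beyond the RNA level was asked by comparing the IAKA effect between the 2 kinds of library. The interaction test called 0% of 22760 genes at 24 hours and 0% of 16141 at 2 weeks (79 and 655 genes at an unadjusted p under 0.05), and no member had an unadjusted p under 0.05. At 24 hours the IAKA effect in m6A libraries minus that in input libraries was −0.26 ± 0.67 for Stat3, −0.05 ± 0.67 for Osmr and −1.22 ± 1.34 for Socs3. At 2 weeks it was −0.40 ± 0.50 for Stat3, −0.22 ± 0.50 for Osmr and −1.19 ± 0.99 for Socs3. The standard errors are wide, and the 95% interval for Stat3 at 2 weeks ran from −1.44 to 0.64. Differences well above 1 standard error could therefore go undetected. At 24 hours the input side also rests on 1 PBS library. In PBS mice at 2 weeks, where 1.12% of 15128 genes differed between m6A and input libraries, 0 of 7 members tested did, and the 7 log2 ratios ran from −0.20 (Lif) to 1.22 (Socs3).

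Levels in the 2 libraries of a mouse were closest for Stat3, Osmr and Il6st among the 7 genes compared. In 13 mice with both, the ratio of m6A to input CPM ran from 0.580 to 1.25 for Stat3 (median 0.974), from 0.911 to 1.99 for Osmr (median 1.27) and from 0.756 to 1.41 for Il6st (median 1.09). It was wider for Il4ra (0.720 to 3.67), Jak2 (1.00 to 2.50), Lif (0 to 1.76, with 0 in PBS mouse 4) and Socs3 (0.243 to 5.22, with as few as 1 count in an input library). By the labels both values come from the RNA of one animal, so agreement between them says nothing on the spread between animals. Over 12340 genes, the correlation of their deviations from group means ran from −0.12 (PBS mouse 2) to 0.88 (IAKA mouse 8 at 24 hours). It was −0.02 in PBS mouse 4 and 0.01 in IAKA mouse 6, both at 2 weeks.

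**Figure D4:**
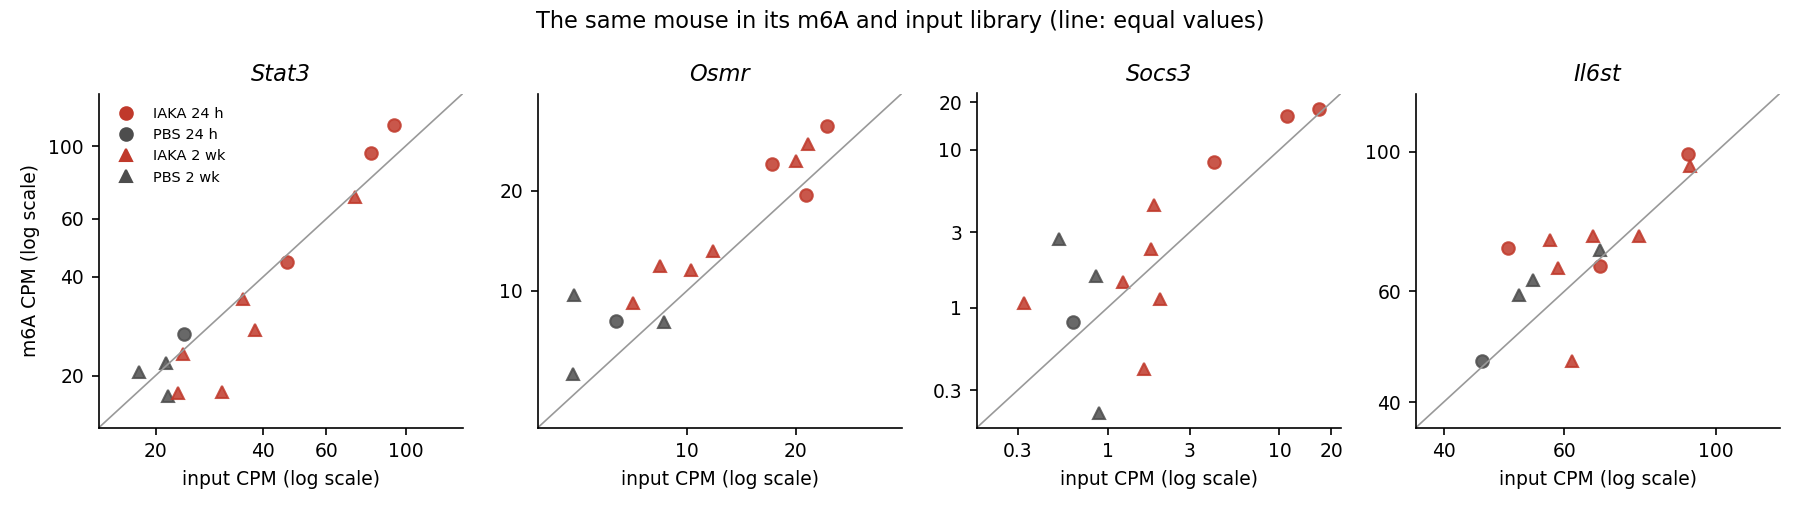
Level of Stat3, Osmr, Socs3 and Il6st in the m6A library (vertical, CPM, log scale) against the input library (horizontal, CPM, log scale) of the same mouse, for 13 mice. The line marks equal values. Points of Stat3 lie along the line with ratios of 0.580 to 1.25, and those of Socs3 scatter from 0.243 to 5.22.

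The rest of the pathway was read from lists of its ligands, receptors, kinases and STATs, inhibitors, STAT3 target genes and NF-kB partners of Bcl3. No gene of these lists passed the threshold in any of the 4 comparisons, so their counts are given at an unadjusted p under 0.05. Of the 20 STAT3 target genes, 19 were above 0 and 12 higher in m6A libraries at 24 hours, against 58.0% and 4.02% of all genes, with a median log2 fold change of 1.42. As for the members, calls depended on the libraries: within set 4, 9 of 20 target genes passed the threshold (1.47% of all genes), and without mouse 8, 3 of 20 did (0.267%). The list was described with earlier results known and is no independent evidence of a direction. Among them, chosen after their values were seen, Serpina3n, a serpin that reactive astrocytes make, had 2.88, Vim, an intermediate filament, 2.38 and Gfap 1.95. Gfap, at 263 to 2162 CPM in IAKA mice and 241 to 465 CPM in PBS mice, was lowest in mouse 8, whose astrocyte markers were low too.

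At 2 weeks the target genes had a median of 0.05 in m6A libraries, with 3 of 20 higher at an unadjusted p under 0.05, against 2.85% of all genes. Without mouse 42 it was −0.21, and within set 5 it was 0.49. In input libraries the median was 0.59, with 6 of 17 tested higher (8.41% of all genes), Gfap at 2.50 and Serpina3n at 3.18. Without mouse 42, 1 of 16 passed the threshold, the only gene called among the 13964 tested. The medians of all genes were −0.0013 and 0.02. At 24 hours in input libraries the target genes had a median of 1.60, with 8 of 20 higher (1.49% of all genes). Without mouse 8, 12 of 19 passed the threshold, as did 7.16% of all genes.

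**Figure D5:**
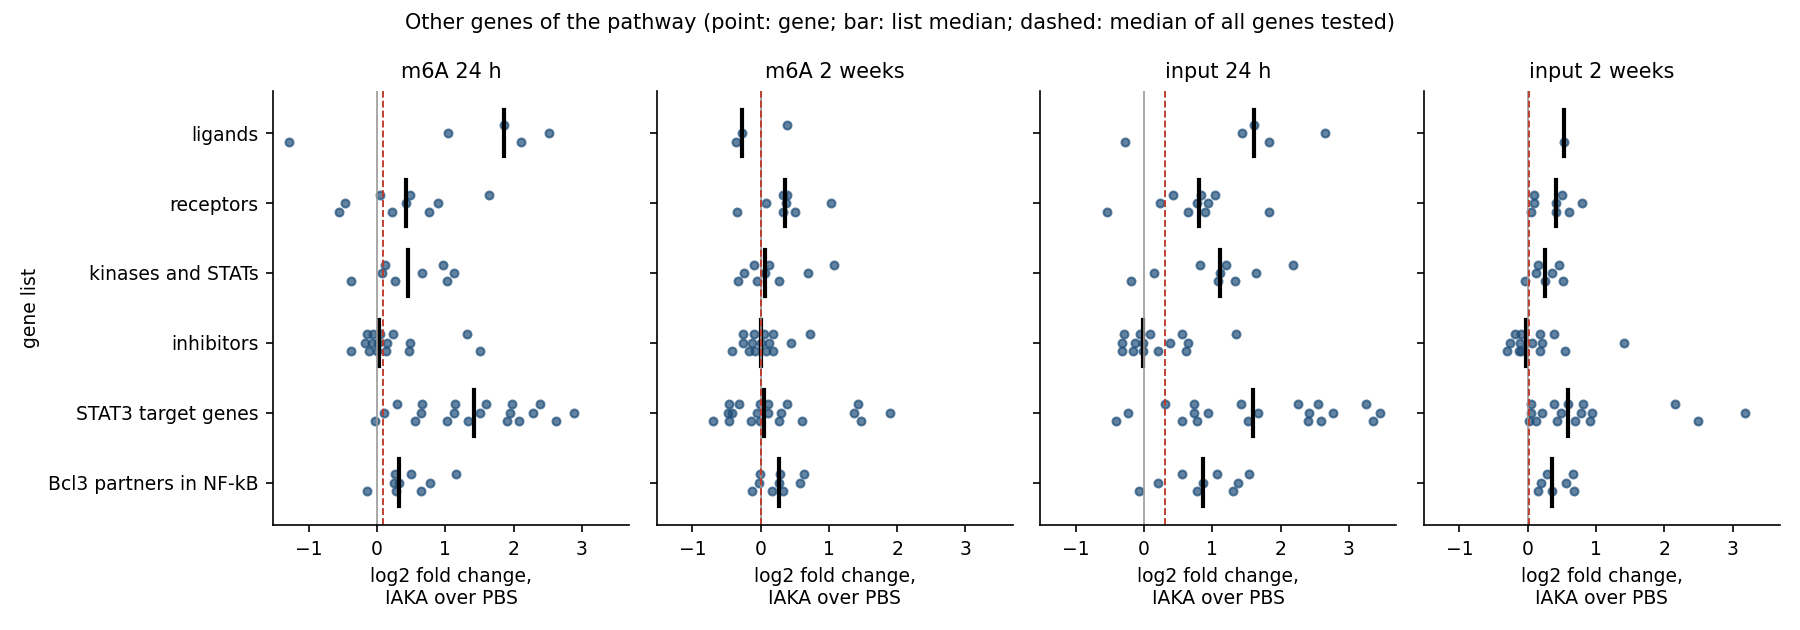
Log2 fold change of IAKA over PBS (horizontal) for the tested genes of 6 pathway lists, without the 10 genes described above. Each point is a gene, the black bar the median of the list and the dashed line the median of all genes tested. STAT3 target genes have medians of 1.42 and 1.60 at 24 hours, and inhibitors stay near 0.

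The other ligands were mostly too low to test: 5 of 10 passed the filter in m6A libraries at 24 hours, 2 of them higher at an unadjusted p under 0.05. Chosen after their values were seen, Il11, a gp130 cytokine, had a log2 fold change of 2.52 and Clcf1, a ligand of the CNTF receptor, 2.11. Of 9 receptors tested, 1 was higher (Il13ra1, which pairs with Il4ra, at 1.64) and 1 lower (Il11ra1, at −0.56), and the median was 0.43. The ligand-binding chain Il6ra had 0.22 and the LIF receptor Lifr 0.04, with adjusted p of 0.983 and 0.995.

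Of 8 kinases and STATs tested, 2 were higher in m6A libraries at 24 hours, with a list median of 0.46. Jak1, the main kinase of gp130, had a log2 fold change of 0.12. Of the 16 inhibitors 1 was higher (Cish, at 1.32, chosen after its value was seen), a share near the 4.02% of all genes, and the median was 0.03. Socs1, a related feedback inhibitor, had 1.50 ± 0.69 at levels of 0.505 to 1.66 CPM in IAKA mice and 0.0738 to 0.538 CPM in PBS mice. The 9 NF-kB partners of Bcl3 had a median of 0.32, with Nfkb2, one of the subunits that Bcl3 binds, at 1.16. At 2 weeks Jak1 had 0.27 in m6A and 0.15 in input libraries, Lifr 0.07 and 0.05, and Il6ra 0.32 and 0.41.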

How the data were processed

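Hippocampal RNA of mice was extracted with Trizol per the labels, and libraries were made with a SMARTer stranded total RNA kit from input or m6A-immunoprecipitated RNA. The tables the authors deposited hold unnormalized counts by gene symbol, with 4 lanes per library. The labels name build mm10. Which aligner, counter and strand setting were used is not given in the sources used here. Summing 140 lane columns gave 35 libraries (16 input, 19 m6A). The column names state the assay (input) of 8 libraries. For the other 27 a numeric prefix (3, 4 or 5) was read as m6A and its absence as input. Another 8 columns, of mice with no input library in the labels, were not used, nor were 3 input libraries under 100000 counts. Counts were fitted with edgeR 4.0.16 in R 4.3.3 (TMM, filterByExpr by group, robust quasi-likelihood, Benjamini-Hochberg at 0.05 over all genes tested), with the groups compared in each fit, and tested on simulated data. Standard errors were taken as |log2 fold change| over the square root of F, and 95% intervals used the degrees of freedom that F and p imply. All 10 members are reported, with Il6ra, Lifr, Jak1 and Socs1 and up to 3 list genes per direction past the threshold. Some genes of the lists are not reported here. Members and lists were chosen with earlier results of these data known. Motifs were searched in RefSeq promoter windows. Mouse numbers pair input and m6A libraries because the labels give both to one animal: in 12 mice the correlation of deviations from group means across 12340 genes ran from −0.12 to 0.88. Alternatives were DESeq2 1.42.0, scaling by library size, no filter, all groups in 1 fit, the shallow inputs added, the mouse as a replicate block, each library left out and, chosen after seeing the data, the library set as a block or restriction.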

Additional observations from a re-analysis of the deposited data

Results flagged for a closer look

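In 39 tests of a member within a group of 5 or 6 libraries, 5 had 1 library farther from the others than Dixon's 95% critical value allows, and chance gives about 1 in 20. IAKA mouse 42 at 2 weeks accounted for 3 of them, with Stat3 at 72.4 CPM in its input library (next highest 37.8 CPM), Stat3 at 69.8 CPM in its m6A library (next 34.3 CPM) and Bcl3 at 2.19 CPM in its input library, from 7 counts (next 0.654 CPM). The Jak2 level of IAKA mouse 8 at 24 hours, 30.1 CPM in m6A, lay below the next lowest of 48.3 CPM. Il6st in the m6A library of PBS mouse 50 at 2 weeks was at 102 CPM, with the next highest at 69.9 CPM.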

How the results depend on the processing

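No member was called in any comparison by the fits reported, and the number of members called changed only at 24 hours. In m6A libraries it was 4 with DESeq2, 1 (Osmr) with all m6A groups in 1 fit (0.172% of all genes higher), 5 within library set 4 and from 0 to 1 with each library left out, the 1 being Stat3 without IAKA mouse 8. In input libraries it was 7 with the library set as a block (7.74% of all genes higher), 7 within the set without the prefix Input, 1 (Socs3) with the shallow libraries added and from 0 to 7 with each library left out, the 7 without IAKA mouse 8. The block, the restriction to that set and the fit without mouse 8 rest on the same libraries, of 2 IAKA mice and 1 PBS mouse. They are therefore not separate checks, and neither are the block and the fit within set 4 in m6A at 24 hours. A fit without the PBS input library of mouse 1 was not possible because no deep control then remained. With the mouse as a replicate block the pairing of input and m6A libraries gave 0 members called, with Stat3 at −0.27 at 24 hours and −0.21 at 2 weeks for the IAKA effect in m6A minus that in input, and changed no call.

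Signs turned for some log2 fold changes, and none of these was called, as no member value was in the fits reported. In m6A at 2 weeks Socs3 was 0.22 with the library set as a block and 0.24 within set 5. Jak2 was −0.13 and −0.11 in the same fits and −0.0080 with scaling by library size, and Il6st was −0.019 with that scaling. The block rests on set 5 there, the only set with both treatments at 2 weeks, so it is not a separate check on the fit within set 5. Scaling by library size also gave Jak2 −0.059 in input at 24 hours and −0.082 for the difference between times in input. For m6A minus input at 24 hours it gave Stat3 0.050, Osmr 0.21, Il6st 0.092 and Jak2 0.28, where Jak2 was 0.013 with DESeq2 and 0.014 with no filter, and Bcl3 was 1.17 with the replicate block. For m6A minus input at 2 weeks Jak2 was −0.025 with scaling by library size and −0.24 with the replicate block. In PBS mice the m6A over input ratio was 0.19 for Stat3 and 0.024 for Lif with scaling by library size, 0.0045 for Stat3 with no filter and −0.093 for Il6st with the replicate block. The cause was not tested. Scaling by library size moved the median of all genes from 0.30 to 0.02 in input at 24 hours, and from 0.00 to 0.26 for m6A minus input at 24 hours.

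Leaving out each library gave these ranges where a sign turned. In m6A at 2 weeks they were −0.64 to 0.31 for Socs3, −0.039 to 0.18 for Il6st, −0.23 to 0.31 for Il4ra and −0.071 to 0.34 for Jak2, and in input at 2 weeks −0.058 to 0.10 for Jak2. For the difference between times they were −0.19 to 0.36 for Jak2 in m6A and −1.48 to 2.63 for Bcl3 in input. For m6A minus input at 24 hours they were −0.25 to 0.20 for Osmr, −0.22 to 1.75 for Osm, −0.43 to 0.079 for Il6st, −0.26 to 4.35 for Il6, −0.76 to 1.41 for Bcl3 and −0.28 to 0.18 for Jak2. At 2 weeks they were −0.35 to 0.32 for Lif, −4.79 to 0.41 for Bcl3 and −0.10 to 0.31 for Jak2. In PBS mice they were −0.21 to 0.029 for Stat3, −0.076 to 0.15 for Il6st, −0.46 to 0.18 for Lif and −0.18 to 0.24 for Jak2. At 24 hours the direction of every member tested held in both kinds of library under every alternative run but the Jak2 value named above, with ranges in m6A of 1.50 to 1.72 for Stat3 and, with each library left out, 1.71 to 2.13 for Osmr, 2.70 to 4.06 for Socs3 and 2.62 to 4.70 for Bcl3. Depth limits Il6, Osm and, in PBS mice, Bcl3.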
